A study of Mus musculus with 23 samples.

Results

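Fam129b, Ptprn, Foxo1 and Rab33b are 4 of the 18578 genes in a brain RNA sequencing table of 23 mouse libraries, and all 4 were among the 17118 genes tested. They were chosen by the difference between HT control and WT control, the genotype comparison without shock: by p in a limma fit they ranked 1, 2, 4 and 5 there. The gene at rank 3, the mitochondrially encoded mt-Nd1, is not among them. The libraries came from male C57BL/6J mice that carried either the wild-type Grin2b gene (WT) or 1 copy of a knock-in allele named C456Y (HT, called heterotype in the labels), and the mice were either foot-shocked or left as controls. The wild-type libraries numbered 6 in control and 5 in shock, the heterozygous ones 6 in each condition. The product of Grin2b is GluN2B, part of the NMDA type of glutamate receptor at synapses. Foot-shock is a brief aversive current delivered to the paws. The labels give an age of postnatal day 17 for every sample, while the text of the series speaks of adults, and the age is therefore uncertain. They name the tissue only as brain, and neither the region, the interval between shock and sampling nor the number of knock-in founders is given. The labels do not tie each library to an animal of its own, and p-values therefore reflect only how these libraries vary, part of which could be technical. In bulk tissue, fewer cells of a type and less RNA per cell cannot be told apart.

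The 4 genes belong to different parts of cell biology. Fam129b, also written Niban2, encodes a cytoplasmic protein with a pleckstrin homology domain that is found at adherens junctions and is a substrate of ERK kinase. Ptprn encodes a transmembrane protein of dense-core vesicles, the organelles that store and release neuropeptides and hormones. It resembles a receptor tyrosine phosphatase, lacks catalytic activity, and is a major autoantigen of type 1 diabetes. Foxo1 encodes a forkhead transcription factor that insulin and growth factor signalling keep out of the nucleus through the kinase Akt; in brain it is known from striatal and hippocampal neurons and from endothelium. Rab33b encodes a small GTPase of the Golgi that binds the autophagy protein Atg16l1. Values are deposited normalized counts, and differences are in log2(normalized count + 1).

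The libraries were alike in their totals and within their groups. Their totals ran from 31.0 M to 32.6 M (M, mega) in normalized counts, which does not give sequencing depth, and each correlated with the others of its group at a median of 0.986 to 0.990. The 10 pan-neuronal markers were all detected, with a summed level of 263926 to 289843 normalized counts per library, so the labelled tissue had its defining markers. On the first principal component of all genes, HT control replicate 6 lay at 31.3, beyond the 6 HT shock libraries (11.4 to 26.0), and results that rest on it are given with and without it. The WT libraries lay at -18.5 to 1.6 on that component, and the other HT control libraries at -12.7 to 5.2. All of these were below every HT shock library.

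The promoters of Ptprn and Foxo1 are shown because these 2 genes passed the test of genotype in the shocked libraries. The stretches are from RefSeq (GRCm38.p6), on the strand of the gene, 5′ to 3′, and end just upstream of the RefSeq start. Capitals mark the motifs found among 3 that were searched on both strands: the CRE half-site (TGACG or CGTCA), the FoxO site (TGTTTAC or GTAAACA) and the CCAAT box (CCAAT or ATTGG). Ptprn occupies chr1:75247027-75264502 on the minus strand (ENSMUSG00000026204, protein coding), and its stretch is chr1:75264214-75264433. Foxo1 occupies chr3:52268336-52353221 on the plus strand (ENSMUSG00000044167, protein coding), and its stretch is chr3:52268087-52268335.
Ptprn: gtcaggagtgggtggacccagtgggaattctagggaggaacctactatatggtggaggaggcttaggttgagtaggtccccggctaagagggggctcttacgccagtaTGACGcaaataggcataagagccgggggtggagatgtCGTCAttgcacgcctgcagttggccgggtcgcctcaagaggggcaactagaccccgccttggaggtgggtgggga
Foxo1: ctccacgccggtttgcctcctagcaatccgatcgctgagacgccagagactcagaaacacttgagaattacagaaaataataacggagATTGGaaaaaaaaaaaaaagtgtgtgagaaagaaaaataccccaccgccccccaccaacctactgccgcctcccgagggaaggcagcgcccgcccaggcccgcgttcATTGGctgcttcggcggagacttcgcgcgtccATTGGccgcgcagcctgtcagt
The Ptprn stretch held 2 CRE half-sites, TGACG at -117 and CGTCA at -80 from the RefSeq start, and it lay between exons of a longer GENCODE transcript that starts upstream. A CRE half-site was present in 17.8% of the 32851 promoter windows of 250 bases in the RefSeq table. The Foxo1 stretch held ATTGG at -162, -55 and -23, a motif present in 33.8% of all windows. The FoxO site, present in 3.17% of windows, was not in the Foxo1 window. None of the 3 motifs was in the windows of Fam129b or Rab33b. A match describes letters only, and no match says only that these letters are not in the window.

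Fam129b (ENSMUSG00000026796, GRCm38 chr2:32876114-32925254, plus strand, protein coding) was the gene that stood highest after shock in wild type relative to its control level. Normalized counts in the 6 WT control libraries ran from 904 through a median of 976 to 1068. In the 5 WT shock libraries they were 1107, 1103, 1103, 1190 and 1082. Every WT shock library thus lay above every WT control library. HT control ran from 1091 through 1148 to 1216, and HT shock from 1067 through 1104 to 1233. The group means were 974 ± 59.5 (SD, n = 6) in WT control, 1117 ± 41.9 (n = 5) in WT shock, 1124 ± 64.7 (n = 6) in HT shock and 1159 ± 48.6 (n = 6) in HT control. In that order the step from WT control to WT shock exceeded the larger SD of the pair, and the 2 later steps did not. WT control was lowest and did not overlap WT shock or HT control. Its highest library (1068) reached just above the lowest of HT shock (1067). The other groups overlapped one another.

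Ptprn was by far the most abundant of the 4, at 4461 normalized counts per kb of its reference GENCODE transcript in WT control, against 262 for Fam129b, 257 for Rab33b and 128 for Foxo1. Its 6 WT control libraries ran from 15184 through a median of 15883 to 16351. The WT shock libraries had 15849, 15627, 16210, 17468 and 16293 normalized counts. HT control ran from 17115 through 17788 to 19659, and HT shock from 17618 through 18507 to 19104. All HT shock libraries lay above all WT shock libraries. The means went from 15855 ± 482 (SD, n = 6) in WT control and 16290 ± 712 (n = 5) in WT shock to 17972 ± 941 (n = 6) in HT control and 18458 ± 593 (n = 6) in HT shock. Neighbours of the same genotype differed by less than the larger SD, and the step from WT shock to HT control exceeded it.

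Foxo1 was ordered the other way. The 6 WT control libraries were tightly grouped, from 1092 through a median of 1104 to 1138 normalized counts. The WT shock libraries had 1090, 1097, 1159, 985 and 1035. HT control ran from 773 through 924 to 1027, and HT shock from 787 through 845 to 906. Every HT shock library lay below every WT shock library. The means were 1111 ± 19.7 (SD, n = 6) in WT control, 1073 ± 66.0 (n = 5) in WT shock, 918 ± 84.8 (n = 6) in HT control and 851 ± 44.9 (n = 6) in HT shock. Here too only the step between genotypes, from WT shock to HT control, exceeded the larger SD of the neighbours.

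Rab33b (ENSMUSG00000027739, GRCm38 chr3:51483920-51496232, plus strand, protein coding) had the same order of genotypes with more overlap. WT control ran from 848 through a median of 898 to 953 normalized counts. The WT shock libraries had 811, 905, 802, 817 and 863. HT control ran from 696 through 747 to 811, and HT shock from 734 through 757 to 807. A single WT shock library, replicate 3, fell within the range of HT shock. Means were 898 ± 46.1 (SD, n = 6), 840 ± 43.4 (n = 5), 754 ± 51.3 (n = 6) and 766 ± 31.5 (n = 6) in the same sequence of groups. The steps from WT control to WT shock and from WT shock to HT shock each exceeded the larger SD of the pair, with overlapping libraries, and the step between the 2 HT groups did not. The gene Gm37968, an unassigned transcript on the same strand, lies wholly inside Rab33b and is also in the table, so reads may have been split between them. On the opposite strand, Lrsam1 overlaps the last 39 bases of Fam129b, Gm28294 lies inside Ptprn and Gm20402 inside Foxo1, and the use of strand in quantification is not stated in the sources used here.

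**Figure D1:**
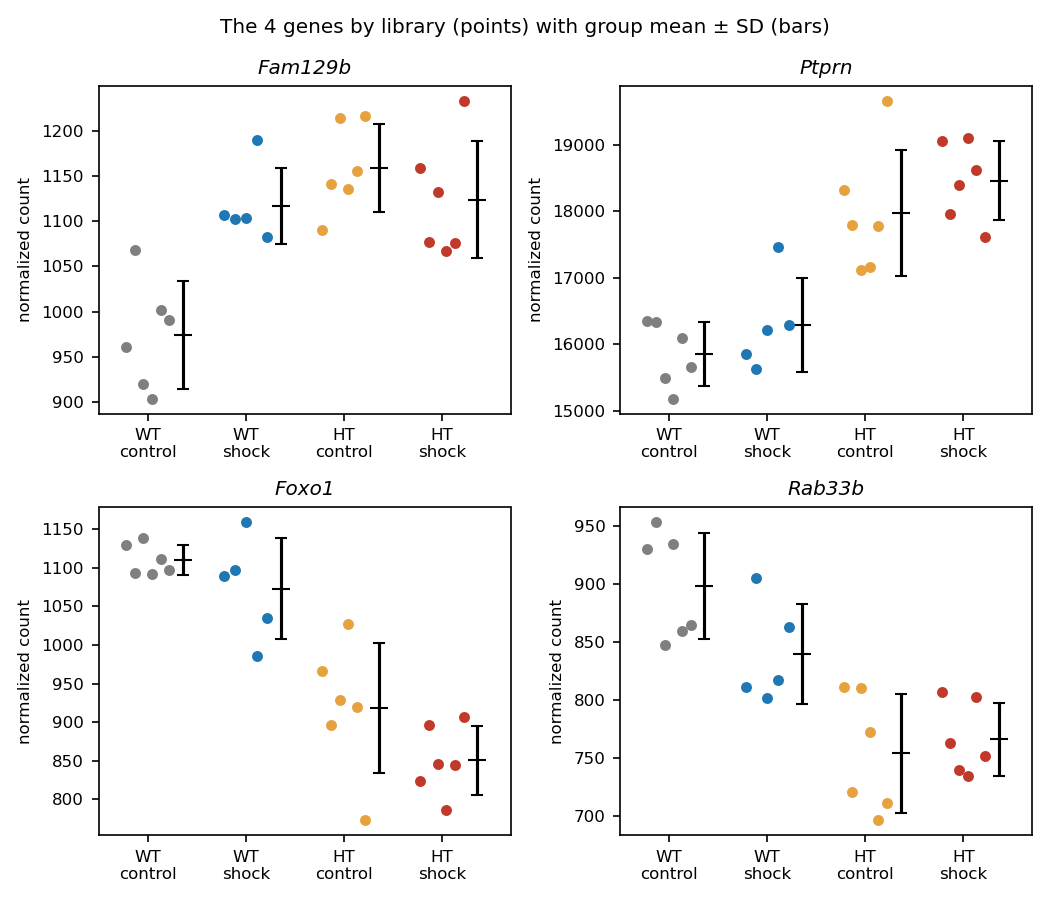
Normalized counts (y axis, not starting at 0) of the 4 genes in each of the 23 libraries (points) by group, with the group mean ± SD (bars). The 5 WT shock libraries of Fam129b lie above all 6 of WT control, while for Ptprn and Foxo1 the WT shock libraries lie on the wild-type side of all HT shock libraries.

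The differences that chose the genes, HT control minus WT control, are given as description only. They were 0.25 ± 0.05 (SE) for Fam129b, 0.18 ± 0.03 for Ptprn, -0.28 ± 0.05 for Foxo1 and -0.25 ± 0.05 for Rab33b. No HT control library overlapped a WT control library in any of the 4, as was the case for 0.421% of all genes tested. Since the genes were chosen there, nothing is read from that count. Without HT control replicate 6 the differences were 0.24, 0.15, -0.23 and -0.24 in the same order. The 3 genes ranked next were Pcnt (-0.31 ± 0.06), Erlin2 (-0.27 ± 0.06) and Orai3 (0.24 ± 0.05), which differed by amounts like those of the 4.

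The first question was whether the genotype difference was present in the shocked libraries, whose levels did not enter the difference that chose the genes. They did enter its p through the estimate of the spread that the 4 groups share. In HT shock against WT shock, 2 of the 4 genes passed the threshold of limma, against 9.28% of the 17118 genes tested. Ptprn was higher in HT shock by 0.18 ± 0.04 (SE, 95% interval 0.11 to 0.25, a fold of 1.13; limma Benjamini-Hochberg adjusted p = 0.00622). Foxo1 was lower by -0.33 ± 0.06 (-0.45 to -0.22, a fold of 0.793; limma adjusted p = 0.00345). For both, an exact two-sided permutation test over the 462 arrangements of 6 and 5 libraries gave p = 0.0022, the smallest it can give. The libraries of the 2 groups did not overlap in either gene, as in 8.57% of all genes tested, 3.75% higher and 4.82% lower.

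Rab33b had the direction that chose it at a smaller size. Its difference in shocked libraries was -0.13 ± 0.05 (95% interval -0.24 to -0.02), which did not pass (limma adjusted p = 0.0997). With estimated library weights it was -0.14 and passed (limma adjusted p = 0.0386). The exact two-sided permutation test for Rab33b gave p = 0.0152, unadjusted over genes. Fam129b showed no detectable genotype difference after shock, at 0.01 ± 0.05 (95% interval -0.09 to 0.11, limma adjusted p = 0.945, exact permutation p = 0.872). Whether this differed from the value without shock is tested by the interaction, given further on. A p that misses the threshold does not show that the shocked genotypes were equal.

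The second question was whether shock moved wild type toward the HT level. In WT shock against WT control, Fam129b was higher by 0.20 ± 0.05 (SE, 95% interval 0.10 to 0.30, a fold of 1.15), Ptprn by 0.04 ± 0.04 (-0.03 to 0.11), and Foxo1 and Rab33b differed by -0.05 ± 0.06 (-0.17 to 0.07) and -0.10 ± 0.05 (-0.20 to 0.01). All 4 had the sign of the HT difference, and for each of them the limma adjusted p was 0.998. By limma, 0 of 17118 genes (0.0%) passed in this comparison, and 637 had an unadjusted p under 0.05. WT control served in both this comparison and the one that chose the genes, and the shared sign is therefore no independent evidence of a move. Fam129b was the only one of the 4 whose WT shock libraries did not overlap WT control, which 0.374% of all genes tested also showed and 0.164% showed in the higher direction.

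As a share of the distance from the WT control to the HT control mean on the log2 scale, WT shock stood at 79.1% for Fam129b, 38.2% for Rab33b, 21.4% for Ptprn and 18.4% for Foxo1. Of the 5 WT shock libraries, 4 fell inside the HT control range for Fam129b, 2 for Rab33b, 1 for Ptprn and 1 for Foxo1. Measured from the other end, WT shock minus HT control was -0.05 ± 0.05 (SE) for Fam129b, -0.14 ± 0.04 for Ptprn, 0.23 ± 0.06 for Foxo1 and 0.16 ± 0.05 for Rab33b, given without a test because HT control chose the genes. The libraries of these 2 groups overlapped in all 4 genes, against no overlap in 0.479% of all genes tested. The 95% intervals were -0.15 to 0.05 for Fam129b and lay away from 0 for the other genes. Without HT control replicate 6 the values were -0.04, -0.12, 0.18 and 0.14.

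WT shock replicate 4 was the library nearest to HT in Ptprn and Foxo1. It had the highest Ptprn (17468), the highest Fam129b (1190) and the lowest Foxo1 (985) of the 5 libraries, and it was the single WT shock library inside the HT control range for Ptprn and for Foxo1. Without it, WT shock minus WT control was 0.01 for Ptprn and -0.02 for Foxo1. Fam129b kept a difference of 0.18 without it, and Rab33b one of -0.09.

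**Figure D2:**
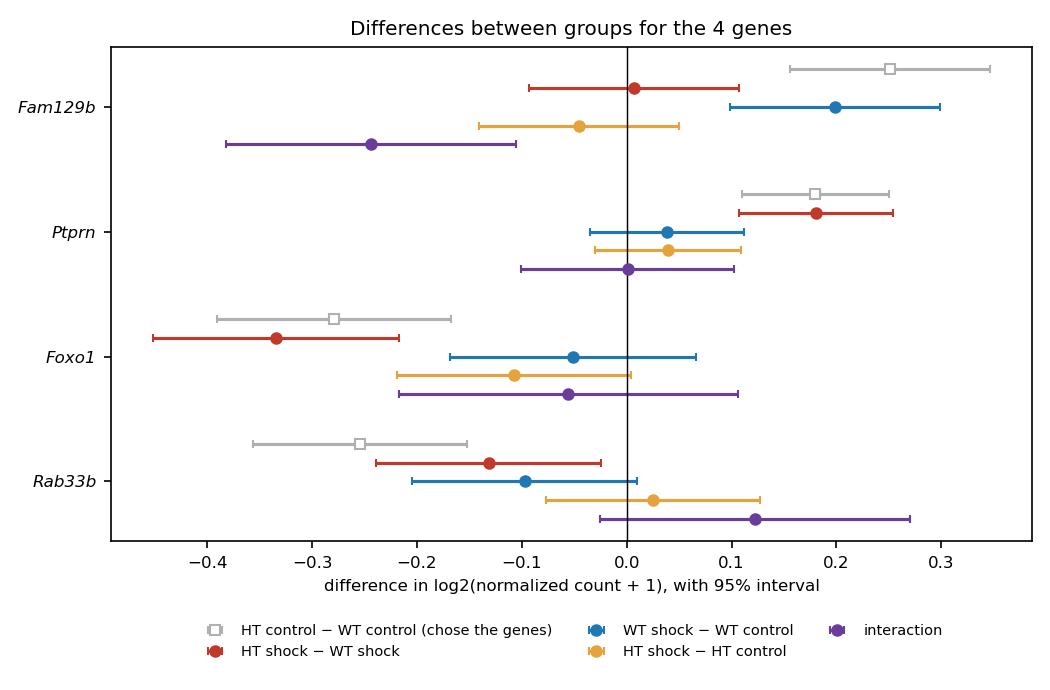
Differences in log2(normalized count + 1) with 95% intervals (x axis) for the 4 genes in the comparison that chose them (open squares), in the other 3 comparisons of 2 groups, and in the interaction of genotype and shock. The genotype difference without and with shock is 0.18 and 0.18 for Ptprn and -0.28 and -0.33 for Foxo1. That of Fam129b lies at 0.01 after shock. The interaction interval of Foxo1 runs from -0.22 to 0.11.

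The same comparison was made within HT mice. HT shock minus HT control was -0.05 ± 0.05 (SE) for Fam129b, 0.04 ± 0.03 for Ptprn, -0.11 ± 0.05 for Foxo1 and 0.03 ± 0.05 for Rab33b. The limma adjusted p values were 0.669, 0.607, 0.383 and 0.845. The libraries of the 2 HT groups overlapped in all 4 genes, while 0.286% of all genes tested had no overlap. By limma 0 genes (0.0%) passed here, with 2352 at an unadjusted p under 0.05. HT control replicate 6 had the lowest Foxo1 (773) and the highest Ptprn (19659) of its group. Without it, Foxo1 in HT shock was lower by -0.16 (limma adjusted p = 0.0324), and 2065 genes passed. The library outlying in the whole transcriptome thus decided that call.

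The interaction, the shock difference in HT minus that in WT, was tested directly. It was -0.24 ± 0.07 (SE, 95% interval -0.38 to -0.11) for Fam129b, 0.12 ± 0.07 for Rab33b, -0.06 ± 0.08 for Foxo1 and 0.0010 ± 0.05 for Ptprn. None passed, with limma adjusted p values of 0.552, 0.787, 0.898 and 0.998, and by limma 0 of all genes (0.0%) passed, with 1101 at an unadjusted p under 0.05. Both groups that chose the genes enter the interaction, which is therefore not independent of that choice. Without HT control replicate 6 the values were -0.23 for Fam129b, 0.11 for Rab33b, -0.10 for Foxo1 and 0.03 for Ptprn, and none passed. The value of Ptprn turned to -0.01 with median centring of the libraries. The 95% interval of Ptprn was -0.10 to 0.10. A difference between genotypes in its response to shock of a size within that interval was not excluded.

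The closest relatives of the 4 genes were named whatever their values. Fam129a (Niban1) stood at 32 normalized counts per kb in WT control and differed by -0.25 ± 0.13 (SE) in HT shock against WT shock. Ptprn2, which also encodes a phosphatase-like vesicle protein, stood at 2471 per kb and differed by 0.03 ± 0.04 (95% interval -0.05 to 0.11). Foxo3 stood at 1321 per kb, above Foxo1, and differed by -0.14 ± 0.05. Rab33a, an X-linked relative of Rab33b, stood at 405 per kb and differed by 0.21 ± 0.07, the opposite sign to Rab33b. None of the 4 relatives passed in limma, with adjusted p values of 0.210, 0.668, 0.105 and 0.0695 in that order.

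Genes of the dense-core vesicle, where Ptprn acts, were described from a list of 28. Including Ptprn, 4 of 28 were called higher in HT shock than in WT shock and 0 lower by limma, with a list median of 0.087 against 0.004 over all genes tested; 3.95% of all genes were called higher. Vgf, a secreted neuropeptide precursor, went from 6045 ± 449 (SD, n = 5) in WT shock to 7440 ± 575 (n = 6) in HT shock, a difference of 0.30. Stx1a, a SNARE protein of vesicle fusion, went from 4749 ± 281 (n = 5) to 6059 ± 406 (n = 6), a difference of 0.35. Chgb, a granin that helps to form the vesicle core, went from 14374 ± 492 (n = 5) to 16401 ± 831 (n = 6), a difference of 0.19. In WT shock against WT control, 0 of the 28 passed by limma, with 0 at an unadjusted p under 0.05, and the median was -0.02. The mean deviation of the list without Ptprn, per library and in log2 units, ran from -0.07 to -0.01 in WT shock and from 0.002 to 0.07 in HT shock, without overlap. This was not particular to the dense-core list. The mean deviations of interneuron markers and of striatal projection neuron markers did not overlap between these groups either, while those of the other lists did.

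Around Foxo1, a list of 25 genes of FoxO and insulin signalling had 5 called lower, Foxo1 included, and 1 higher in HT shock against WT shock, with a median of -0.08; 5.33% of all genes were called lower. Igf1r and Insr encode the receptors for insulin-like growth factor and insulin. Igf1r went from 2673 ± 175 (SD, n = 5) to 2246 ± 125 (n = 6), a difference of -0.25. Insr went from 2012 ± 84.1 (n = 5) to 1700 ± 79.6 (n = 6), a difference of -0.24. Pdpk1, the kinase upstream of Akt, went from 4290 ± 336 (n = 5) to 3493 ± 220 (n = 6), a difference of -0.30. Rictor, a subunit of the mTOR complex that phosphorylates Akt, was the remaining gene called lower, and Pik3r2, a regulatory subunit of phosphoinositide kinase, was the one called higher.

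Of 24 genes known as targets of FoxO factors, 21 were tested. In HT shock against WT shock, 3 were called lower and 1 higher, beside 5.33% and 3.95% of all genes, and 16 of 21 were negative, with a median of -0.08. The lower ones were Pdk4, an inhibitor of pyruvate dehydrogenase, with a difference of -0.44 ± 0.12 (SE), and Insr and Rictor, which also stand in the signalling list. Gadd45a, a growth arrest and DNA damage gene, was higher by 0.38 ± 0.11. In WT shock against WT control, 0 members of either Foxo1 list passed by limma, with 1 signalling gene and 0 targets at an unadjusted p under 0.05.

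Of 29 autophagy and Golgi genes around Rab33b, 1 was called higher and 0 lower, a share close to the 3.95% of all genes called higher. It was Map1lc3a, which encodes a protein of the autophagosome membrane and was higher in HT shock by 0.24 ± 0.06 (SE), the opposite sign to Rab33b. The list median was 0.03, with 21 of 29 positive and 8 at an unadjusted p under 0.05, beside 4773 of all 17118 genes. Of the 16 Niban family and adherens junction genes, 0 passed by limma in HT shock against WT shock, with 3 at an unadjusted p under 0.05. The smallest p belonged to Nectin2, a junction receptor, at 0.21 ± 0.07 (limma adjusted p = 0.0664), and Vcl, which links junctions to actin, at -0.19 ± 0.08 (limma adjusted p = 0.109).

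Several of these counts depended on single libraries. Without HT control replicate 6, which enters only through the shared estimate of the spread, 9 dense-core genes were higher, 7 signalling genes and 5 FoxO targets were lower, 3 Golgi and autophagy genes and 1 junction gene were higher. Over the omission of each of the 23 libraries in turn, the count of dense-core genes called higher lay between 4 and 9, that of signalling genes called lower between 1 and 7, and that of FoxO targets called lower between 0 and 5.

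Markers of cell types moved with Foxo1. In HT shock against WT shock, 5.33% of all genes were called lower and 3.95% higher. Of 16 markers of striatal projection neurons, which express Foxo1, 11 were called lower and 0 higher there, with a median of -0.37. Their summed level was 55223 to 61233 normalized counts in WT control, 54903 to 55759 in WT shock, 43559 to 55436 in HT control and 34535 to 49740 in HT shock. No defining marker was near 0: Drd1 averaged 896 normalized counts in WT shock and 628 in HT shock, and Drd2 averaged 921 and 635. The HT control library with the least striatal signal, replicate 6, was also the one with the lowest Foxo1, and the one with the most, replicate 4, had the highest Foxo1 of that group. Within HT shock the orders matched only in part: replicates 1 and 4 had the lowest striatal level and the lowest Foxo1, but replicate 6, the next lowest in mean striatal deviation, had the highest Foxo1 (906), and replicates 3 and 5, with the most striatal signal, had 845 and 844. The part of the striatal share of the tissue in the Foxo1 difference was not tested. Foxo1 is also expressed in endothelium, whose 14 markers had a median of -0.20 in the same comparison with 0 called by limma and 6 at an unadjusted p under 0.05, and a summed level of 9255 to 11244 in WT shock and 7948 to 10294 in HT shock.

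Other markers moved beside Ptprn. Cortical and hippocampal glutamatergic markers had 5 of 12 called higher and 2 lower in HT shock against WT shock. Interneuron markers had 3 of 12 higher and 2 lower, with 6 positive, 6 negative and a median of 0.03. Pan-neuronal markers had 2 of 10 higher and 1 lower. The summed levels in WT shock and HT shock were 123551 to 136020 and 134748 to 151250 for the glutamatergic markers, 59018 to 62826 and 59612 to 63219 for the interneuron markers. The mean log2 deviation of the interneuron markers ran from -0.059 to 0.010 in WT shock and from 0.013 to 0.128 in HT shock, without overlap. That of the glutamatergic markers ran from -0.158 to 0.029 and from -0.037 to 0.120, with overlap. Oligodendrocyte markers had 7 of 12 lower, mitochondrially encoded genes 6 of 13, thalamic markers 3 of 8 and astrocyte markers 2 of 12, beside 5.33% of all genes called lower and 3.95% called higher, and the precursor, microglial, mural and choroid plexus lists had 0 called by limma, with 2, 0, 0 and 0 members at an unadjusted p under 0.05. With 1 library left out, the counts called lower lay between 2 and 8 for the oligodendrocyte list, 0 and 4 for the thalamic list, 2 and 4 for the astrocyte list and 4 and 6 for the mitochondrial list. The oligodendrocyte count was 2 without WT shock replicate 4 or 5 or HT shock replicate 1, 2 or 3, it was 3 without WT shock replicate 2, and it was 4 without WT shock replicate 3 or HT shock replicate 4. The thalamic count was 0 without HT shock replicate 1 or 2, and 1 without WT shock replicate 1 or 5 or HT shock replicate 4. The astrocyte count was 4 when replicate 6 of either HT group was left out. The part of these shifts in the difference of Ptprn was not tested.

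Markers of several non-neuronal cell types had positive differences beside Fam129b in shocked wild type. In WT shock against WT control, 14 of 14 endothelial markers were positive (median 0.16), as were 12 of 12 choroid plexus and ependymal markers (0.16), 13 of 14 mural and fibroblast markers (0.14), 8 of 8 oligodendrocyte precursor markers (0.16) and 10 of 12 oligodendrocyte markers (0.10). By limma 0 of each list passed, with 4, 3, 1, 0 and 1 at an unadjusted p under 0.05, beside 637 of all 17118 genes. Of the microglial markers 10 of 12 were positive (0.09), and of the astrocyte markers 9 of 12 (0.05). By limma 0 of these passed too, with 1 and 2 at an unadjusted p under 0.05. The summed levels in WT control and WT shock were 8331 to 10629 and 9255 to 11244 normalized counts for the endothelial list, 7188 to 15305 and 11161 to 16709 for the choroid plexus list, 7072 to 8823 and 7640 to 10247 for the mural list, 8208 to 10800 and 9299 to 11835 for the precursor list. Fam129b was also higher in HT control against WT control. There 14 of 14 mural markers (median 0.21) and 12 of 12 choroid plexus markers (0.29) were positive. Positive differences also had 12 of 14 endothelial markers (0.08) and 6 of 8 precursor markers (0.08). The oligodendrocyte markers went the other way there, with 10 of 12 negative (median -0.11). Microglial markers were positive there in 12 of 12 (0.24), and astrocyte markers negative in 9 of 12 (-0.02). In the interaction Fam129b was negative, as were 14 of 14 endothelial markers (-0.30) and 14 of 14 mural markers (-0.24). The 12 of 12 oligodendrocyte markers (-0.17) and 8 of 8 precursor markers (-0.20) were negative too. By limma 0 passed, with 7, 1, 2 and 0 at an unadjusted p under 0.05, beside 1101 of all 17118 genes. Negative values also had 11 of 12 microglial (-0.14), 11 of 12 astrocyte (-0.12) and 10 of 12 choroid plexus markers (-0.16). By limma 0 of them passed, with 1 of each list at an unadjusted p under 0.05. WT control, which entered the choice of Fam129b, is part of all of these comparisons. Their signs are therefore not independent of one another or of that choice. The part of these markers in the Fam129b difference was not tested.

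**Figure D3:**
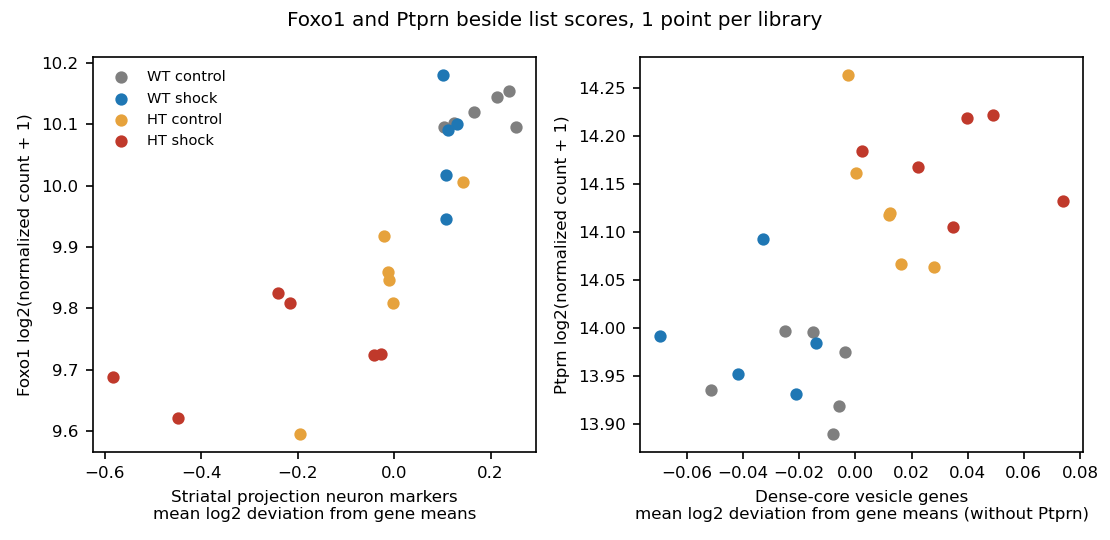
Foxo1 against the mean log2 deviation of 16 striatal projection neuron markers (left) and Ptprn against that of 27 other dense-core vesicle genes (right), with 1 point per library in the colour of its group. HT control replicate 6 is the HT control point lowest in Foxo1 and highest in Ptprn. It is also the lowest of its group in the dense-core deviation (-0.003). Within HT shock, replicate 2 is highest in that deviation (0.07), at 17960 normalized counts of Ptprn. Replicates 1 and 4, at 0.04 and 0.05, have 19054 and 19104.

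Among themselves, the 4 genes were compared within groups, as deviations of the 23 libraries from their group means, over 6 pairs. Ptprn and Foxo1 were inversely correlated, with Pearson's r = -0.74 (permutation p = 0.0012, Benjamini-Hochberg adjusted p = 0.0075 over 6 pairs) and Spearman's rho = -0.60 (permutation p = 0.0066, adjusted p = 0.0394). HT control replicate 6 and WT shock replicate 4 lay farthest out in Ptprn. Without them r was -0.50 (permutation p = 0.0319, not adjusted over the 6 pairs). In the other 5 pairs r over all 23 libraries lay between -0.22 and 0.26, and none passed. Each of them was also computed without the 2 libraries farthest out in 1 gene of the pair. There r lay between -0.41 and 0.41, with a smallest unadjusted permutation p of 0.0747. Rab33b and Foxo1, which are both lower in HT, had r = 0.24 and rho = 0.10. The labels give no batch or date that could be used to split the libraries.

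The genes most like each of the 4 by the same measure, given as a description over 23 libraries, were different in each case. For Fam129b they were Tes (r = 0.74), Klhl18 (0.72) and Chst2 (0.71). For Ptprn they were H2-D1 (0.81), Mgat5b (0.80) and Hirip3 (0.79), where reads of H2-D1 can be shared with other class I histocompatibility genes. For Foxo1 they were Ptbp3 (0.84), Dnajb9 (0.83) and Dgkb (0.83), and for Rab33b Upb1 (0.81), Smarcc2 (0.73) and Dennd5a (0.73). Of these 12, Dgkb, a diacylglycerol kinase, was the one called in HT shock against WT shock, where it was lower by -0.33 ± 0.08 (SE, limma adjusted p = 0.0204), about as much as Foxo1.

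Rab33b and Foxo1 lie on the same chromosome with 772 kb between them, both on the plus strand of chromosome 3, which prompted a look at the genes around them after their positions were seen. Of 13 other genes tested within 1000 kb of the pair, 0 were called and 9 had a negative difference in HT shock against WT shock, with a median of -0.05. The 3 genes between them were Setd7, a lysine methyltransferase (-0.24 ± 0.08 SE, limma adjusted p = 0.0535), 5031434O11Rik (-0.03 ± 0.12) and Maml3 (-0.05 ± 0.09). Cog6, on the far side of Foxo1, differed by 0.01 ± 0.04. Foxo1 was the gene called in this stretch, and whether its neighbours differed from it was not tested.

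**Figure D4:**
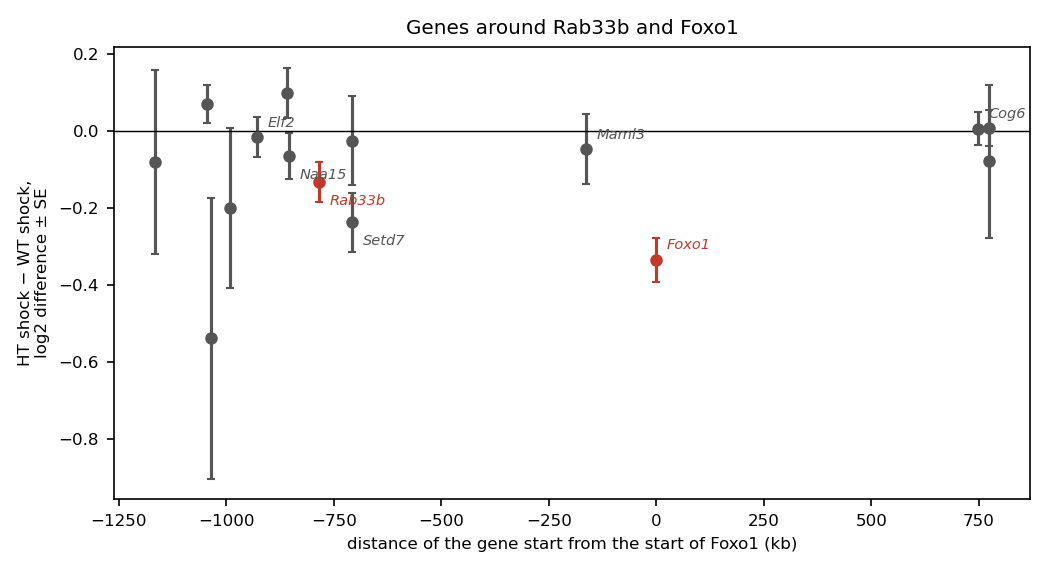
Difference in log2(normalized count + 1) between HT shock and WT shock (y axis, with SE) for Foxo1, Rab33b (red) and 13 neighbouring genes (grey) by distance of the gene start from that of Foxo1 in kb. Foxo1 lies at -0.33, and the widest bars belong to low-level transcripts.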

How the data were processed

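The authors deposited 1 table of normalized counts per gene (a signal with decimals, not raw counts) for brain RNA prepared with a stranded mRNA kit, per the labels' protocols. Per the submitters' processing notes, the tools were Salmon 1.1.0, R 3.6.2 and DESeq2 1.26.0 and the build GRCm38, without roles. Depending on the library, 17.3% to 49.1% of low values were whole multiples of a step, within 0.1, so reads could not be recovered, depth is unknown and no count model was run. Of 24 columns, 1 matched no sample and was not used. Groups and replicate numbers came from the titles.

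Values were taken as log2(normalized count + 1), which understates the change of low genes, for 17118 genes with a mean of at least 10. limma 3.58.1 (statmod 1.5.0, R 4.3.3; 4 groups in 1 fit, trend and robust moderation) gave the differences, with Benjamini-Hochberg adjustment over all genes tested and a threshold of 0.05; the design had named a count test for raw counts and this one for normalized counts. Calls were checked on simulated data. Permutation tests used scipy 1.17.1, and figures matplotlib 3.10.9 in Python 3.11.15. Positions are from GENCODE M21, with symbols for 18563 of 18578 IDs; of the 4 genes, 4 matched the RefSeq promoter table.

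The 4 genes and all gene lists were chosen with earlier results of these data known. Named genes were the 4, their closest relatives, the genes ranked next to them (to rank 8), up to 4 called genes of each pathway list by smallest p or else the 2 with the smallest p, and the 3 most similar genes of each. Pik3r2, Drd1, Drd2 and the neighbours on chromosome 3 were chosen after their values were seen. Alternatives were median centring, other filters and pseudocounts, the compared groups only, a replicate block, library weights, a residual component, moderation without trend and the omission of each library. List counts under each of them and the chromosome 3 region were added after seeing the data.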

Additional observations from a re-analysis of the deposited data

Results flagged for a closer look

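In 32 groups examined (the 4 genes and their 4 closest relatives in 4 groups each), 4 libraries lay farther from the others of their group than Dixon's 95% criterion allows, where chance alone gives about 1 in 20 groups. Fam129b in WT shock replicate 4 was high, at 1190 normalized counts, while the other 4 libraries of that group lay between 1082 and 1107. Fam129a in WT shock replicate 3 was high, at 145. Ptprn2 in WT shock replicate 5 was low, at 7011. Foxo3 in WT control replicate 1 was low, at 3342.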

How the results depend on the processing

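Over 34 alternatives the difference between HT shock and WT shock stayed past the threshold of limma for Ptprn (0.17 to 0.21) and Foxo1 (-0.36 to -0.31). The count of genes called in that comparison also moved: 1589 became 2932 with the compared groups only, 3775 with library weights and 1011 without trend and robust moderation. It was 422 to 2923 with 1 library left out, above 1.5 times the main count without HT control replicate 6 (2923) and below it by that factor without WT shock replicates 1, 2, 3 and 5 and HT shock replicates 1 to 4 (756, 611, 723 and 851, then 422, 497, 577 and 839). With a replicate block it was 450 by title number and 976 by bracketed number. Whether the numbers pair the libraries was not settled. Deviations of same-numbered libraries correlated between -0.15 and 0.19, above 0.1 in 5 of 33 pairs, and weak correlation cannot exclude pairing. The block changed no call for the 4 genes.

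The difference of Fam129b there, near 0, turned to -0.0083 with the block by title number, to -0.0076 with library weights, and ranged from -0.020 to 0.030 with 1 library left out. With library weights Rab33b there was -0.14 and passed, and in HT shock against HT control Rab33b turned to -0.0016 and Foxo1 was -0.15 and passed. With 1 library left out, Foxo1 in HT shock against HT control ranged from -0.16 to -0.074. Genes called in that comparison numbered 1 with the compared groups only, 2792 with library weights, 4 with the residual component, and 0 to 2065 with 1 library left out. In the interaction, Ptprn turned to -0.011 with median centring and -0.0022 with the block by title number, and ranged from -0.014 to 0.027 with 1 library left out; 2 genes were called with library weights, and 0 to 1 with 1 library left out. The causes were not tested. Depth is unknown, and the number of libraries sets the precision.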
